A study of Drosophila melanogaster with 4 samples.

Results

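Nuclear mRNAs gained in DmAngel KO are 48 fly genes from a ribosome profiling study. Each had a scaled read level in both knockout libraries at least 4 times that in either control library. They were chosen by the knockout and control values themselves: reads on nuclear transcripts were summed per gene, expressed as reads per 1000000 reads on nuclear transcripts (rpm) with 1 added, and a gene was taken when it had 60 or more reads over the 4 libraries and both DmAngel KO values were at least 4 times the larger control value. Genes of several abundant families (among them odorant binding, cuticle, mucin, ribosomal and respiratory chain subunit genes) and HtrA2 and Thor were left out by name. The rule took 48 of the 2140 remaining genes with 60 reads, or 2.24%, out of 17677 genes in the matched annotation. Because these values chose the genes, the knockout and control levels of the 48 are given as a description without a test.

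The study profiled mitoribosomes, the ribosomes inside mitochondria, in third-instar larvae lacking DmAngel (gene angel), a mitochondrial phosphatase needed to process certain transcripts of the mitochondrial genome. The controls were Angel+/+ larvae of the white Dahomey strain, and the knockout larvae were Angel-/- homozygotes carrying a CRISPR/Cas9 deletion, backcrossed into white Dahomey for 6 generations. There were 2 control and 2 DmAngel KO libraries, made from whole larvae, and the knockout libraries came from a single deletion line. The labels call the libraries technical replicates and the paper calls them independent samples, so the spread between replicates may be technical, and where edgeR p-values are given they measure only that spread.

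An isolated mitochondrial pellet also carries cytosolic ribosomes that sit on the outer membrane or on attached endoplasmic reticulum, together with the mRNAs they translate. Reads on nuclear transcripts in a mitoribosome library can come from such co-purified mRNA. Many of the mRNAs described here encode enzymes of detoxification, in which cytochrome P450s oxidise a foreign or hormonal compound, and glutathione S-transferases or UDP-glycosyltransferases attach a group that makes it soluble. In whole larvae, fewer cells of a type and less RNA per cell cannot be told apart.

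The libraries held between 1789947 and 8227127 reads. Nuclear transcripts took 31.9% and 25.5% of the reads in the controls and 6.93% and 6.30% in the knockouts, which left 457054 to 1324943 reads on nuclear transcripts per library, and a single read was worth 0.755 to 2.19 rpm. The mRNA of the targeted gene, angel, had 2 and 0 reads in control and 1 read in each DmAngel KO library, all at or under the floor of 3 reads, so it does not check the labels. The fat body storage and receptor genes (Lsp1alpha, Lsp1beta, Lsp1gamma, Lsp2, Fbp1 and Fbp2) held 31.2% and 16.5% of the nuclear reads in the controls and 3.70% and 2.33% in the knockouts, and the rpm of every other gene is relative to a total that includes them. Over all genes with 60 reads, the median log2 ratio of DmAngel KO to control was 0.55.

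The 48 mRNAs together held 1593 and 1118 rpm in control and 17595 and 12795 rpm in DmAngel KO, or 0.159% and 0.112% against 1.76% and 1.28% of nuclear reads. The lower DmAngel KO value was 4.21 to 32.4 times the higher control value, with a median of 6.76, and it was at least 8 times higher for 20 genes and at least 16 times higher for 6. The median log2 ratio of means was 3.59. Reads were unevenly spread, since Cyt-b5-r, Cyp6a23 and Ugt37A3 held 51.5% of the 19220 reads, and 16 genes had 100 reads or fewer. All 48 are protein-coding. By function they fell into 11 genes of detoxification and redox metabolism, 4 ecdysteroid kinase-like genes, 4 genes of mitochondrial proteins, 10 regulators, signalling proteins and channels, 3 genes of immunity or extracellular proteins, and 16 genes without an assigned role.

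**Figure D1:**
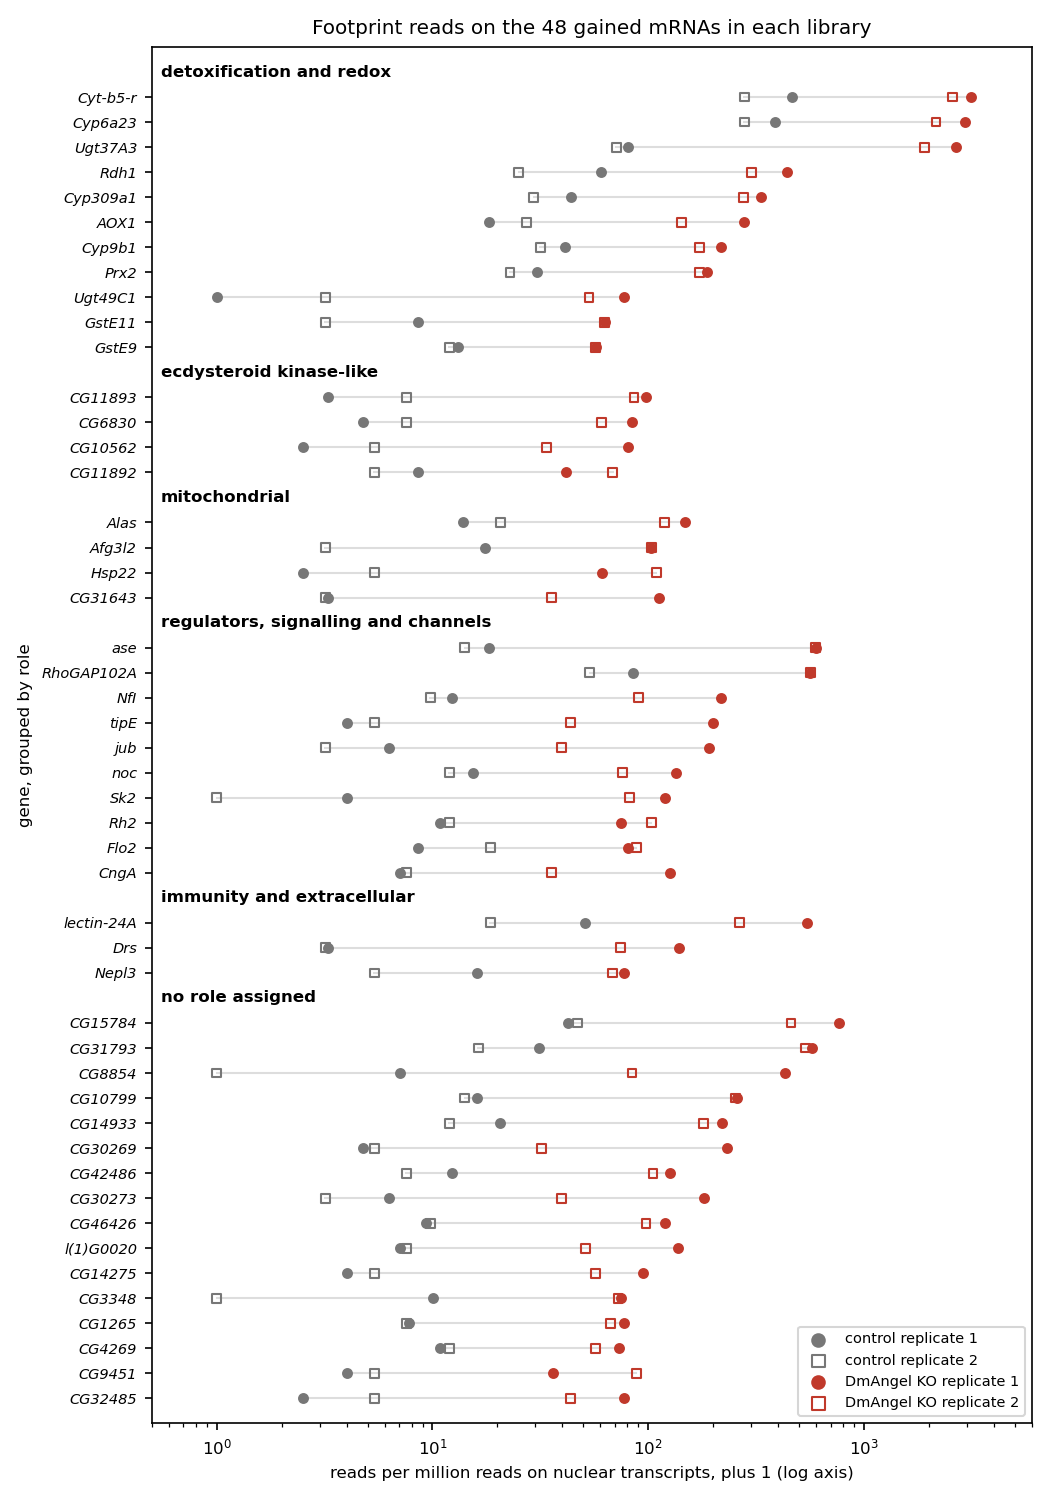
Level in rpm plus 1 (log axis) for each of the 48 mRNAs, grouped by role; grey symbols are the 2 control libraries and red symbols the 2 DmAngel KO libraries, filled for replicate 1 and open for replicate 2. Cyt-b5-r, Cyp6a23 and Ugt37A3 lie above all others in DmAngel KO, and ase, Ugt37A3, Drs and Sk2 have the widest gaps between the groups.

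Detoxification and redox genes supplied 11810 of the 19220 reads, and their summed level was 1135 and 772 rpm in control and 10371 and 7868 rpm in DmAngel KO. The most-read was Cyt-b5-r (chromosome 2L, 16788774 to 16790721), a cytochrome b5-related protein, with 463 and 278 rpm in control and 3139 and 2577 rpm in DmAngel KO. Cyp6a23 (2R, 14875829 to 14877654), a cytochrome P450, had 384 and 278 rpm in control and 2926 and 2152 rpm in DmAngel KO. Both were above the all-gene median of 40.1 rpm in control already, and their pooled ratios were 6.91 (95% interval 6.38 to 7.50) and 7.16 (6.57 to 7.82). The exact binomial interval here and below covers counting error only. It makes no allowance for the choice of the genes on these same reads, so it is no test of a difference.

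The UDP-glycosyltransferase Ugt37A3 (3R, 12741958 to 12743680) started lower than these, with 79.2 and 70.01 rpm in control and 2661 and 1909 rpm in DmAngel KO. Its control values were still above the all-gene median of 40.1 rpm. Its pooled ratio was 29.9 (25.2 to 35.8), and in DmAngel KO it reached the level of Cyp6a23 within the spread of the libraries. The related Ugt49C1 was close to undetected in control, with 0 and 1 reads, and had 43 and 27 reads in DmAngel KO, a pooled ratio of 115 with an interval from 19.98 to 4606 that reflects the single control read.

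The remaining cytochrome P450s were at lower levels than Cyp6a23. Cyp309a1 had 43.0 and 28.4 rpm in control and 334 and 276 rpm in DmAngel KO. Cyp9b1, the gene with the smallest ratio of the 48, had 40.0 and 30.6 rpm in control and 217 and 172 rpm in DmAngel KO. The glutathione S-transferases were low throughout. GstE9 had 12.1 and 10.9 rpm in control and 56.5 and 56.0 rpm in DmAngel KO, and GstE11 had 7.55 and 2.19 rpm in control and 61.8 rpm in each DmAngel KO library.

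Oxidoreductases made up the rest of the group. Rdh1, named as a retinol dehydrogenase, had 59.6 and 24.1 rpm in control and 438 and 299 rpm in DmAngel KO. AOX1, an aldehyde oxidase, had 17.4 and 26.3 rpm in control and 277 and 141 rpm in DmAngel KO, so its knockout libraries differed 1.96-fold from each other. Prx2, a peroxiredoxin that reduces hydrogen peroxide, had 29.4 and 21.9 rpm in control and 185 and 172 rpm in DmAngel KO, so its knockout libraries were within 1.08-fold.

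The relatives of the gained detoxification enzymes were tested next, without the 48 themselves. Genes that passed the expression filter were fitted with edgeR's quasi-likelihood test on trimmed-mean (TMM) scaled counts over 2994 genes, of which 125 (4.18%) were higher and 210 (7.01%) lower in DmAngel KO at an adjusted p under 0.05, and the median log2 fold change of all genes was 0.01. Without TMM factors the median of all genes was 0.70, and 735 were called higher and 116 lower, so the fold changes below are relative to the TMM median. The 48 were part of the fit, and their calls are not counted below because the rule used the same contrast. An unadjusted edgeR p under 0.05 was reached by 832 of the 2994 genes, the 48 included. Counts at that cut below are to be read beside this share. Of 12 UDP-glycosyltransferases outside the 48, 1 was called higher and 0 lower, with 6 at an unadjusted p under 0.05, 1 called higher by DESeq2, and a median log2 fold change of 0.69. Without TMM factors 6 of the 12 were called higher, with a median of 1.38, and with a replicate block 5 were. The gene called under TMM was Ugt37A2, the neighbour of Ugt37A3, with 478 and 267 rpm in control and 2608 and 1643 rpm in the knockouts (log2 fold change 1.80 ± 0.41 SE, edgeR adjusted p = 0.0147). Ugt37D1 had a log2 fold change of 0.38 ± 0.37 and Ugt35A1 of -0.13 ± 0.36, which was 0.57 without TMM factors.

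Of 11 glutathione S-transferases outside the 48, 1 was called higher and 1 lower by edgeR with TMM factors, 5 higher and 0 lower without them, and 0 by DESeq2, and 4 had an unadjusted edgeR p under 0.05. GstE7 was the higher one, with 5 and 3 reads in the controls and 26 and 19 in the knockouts (log2 fold change 2.44 ± 0.52, edgeR adjusted p = 0.0105), and it missed the rule on its 53 reads. GstE1 was lower, at 22.6 and 30.6 rpm in control and 15.9 and 3.86 rpm in the knockouts (log2 fold change -2.03 ± 0.56, edgeR adjusted p = 0.0365, and 0.0866 without TMM factors). GstD1, the most-read of the family, had a log2 fold change of 0.52 ± 0.33 and did not pass.

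Of 31 cytochrome P450s outside the 48, 3 were called higher and 4 lower, with a median log2 fold change of -0.42. Without TMM factors the balance turned, with 11 called higher, 2 lower and a median of 0.26. Cyp6a17, Cyp6d2 and Cyp28a5 were higher, with log2 fold changes of 1.91, 1.76 and 1.41, and relative to all reads of the library these were 0.45, 0.35 and 0.00, on a scale where the median of all genes was -1.50. The lower ones were Cyp6w1, which had 458 and 238 rpm in control and 51.2 and 36.7 rpm in the knockouts (log2 fold change -3.68 ± 0.44, edgeR adjusted p = 0.000286), Cyp6g1, Cyp4d1 and Cyp4ad1, of which Cyp4d1 and Cyp4ad1 were no longer called without TMM factors. Cyp6g1 and Cyp6w1 belong to the same Cyp6 family as Cyp6a23, and Cyp6g1, known for its role in insecticide resistance, was at 1688 and 987 rpm in control and 660 and 473 rpm in DmAngel KO.

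**Figure D2:**
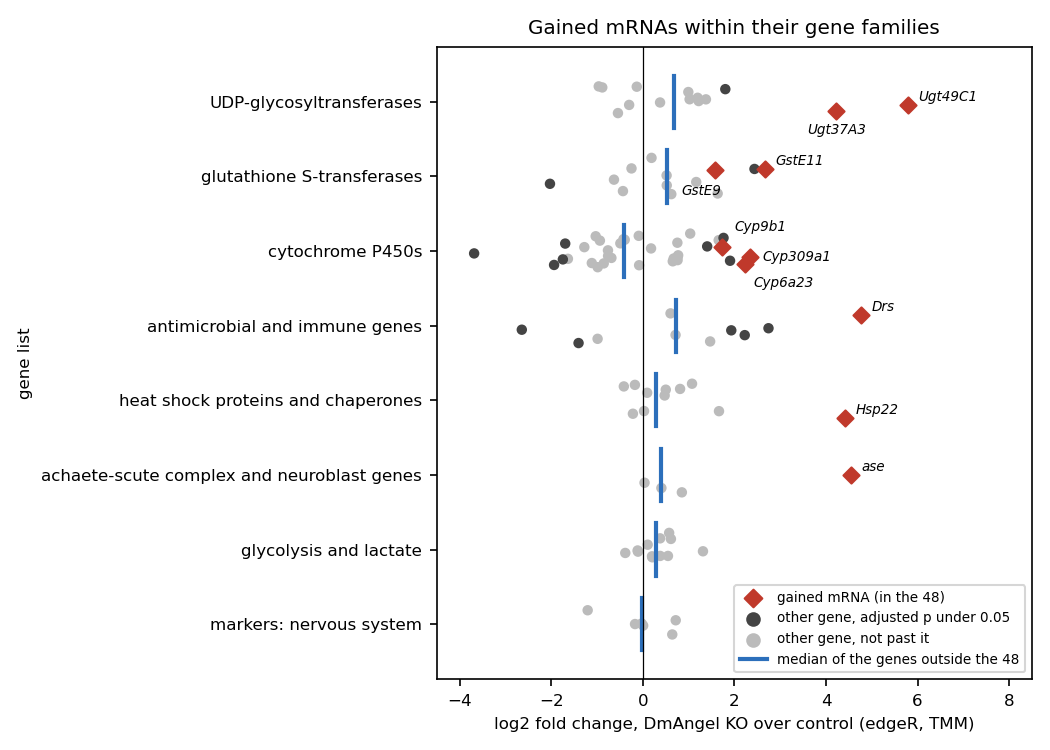
Log2 fold change of DmAngel KO over control (edgeR, TMM scaling) for the tested genes of 8 lists; red diamonds are genes of the 48, dark grey points other genes with an adjusted p under 0.05, light grey points genes that did not pass, and blue lines medians of the genes outside the 48. Points are spread vertically for legibility; the cytochrome P450s outside the 48 lie on both sides of 0 with a median of -0.42 (0.26 without TMM factors).

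Some gained genes sit beside a relative with a smaller ratio. Cyp6a17, directly upstream of Cyp6a23, had 62.6 and 24.1 rpm in control and 319 and 243 rpm in DmAngel KO, and its ratio of lower knockout to higher control value was 3.84, just short of the rule. The corresponding ratio was 3.43 for Ugt37A2. Cyp309a2, the neighbour of Cyp309a1, had 1 to 4 reads in each library and could not be compared. Reads from near-identical stretches of such pairs may have been placed on either copy, so the values of Cyp6a23, Cyp6a17, Ugt37A3 and Ugt37A2 are uncertain to that extent.

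Members of another family, CG11893, CG11892, CG10562 and CG6830, carry clade names of the ecdysteroid kinase-like family, whose founding member in silkworm phosphorylates ecdysteroid hormones. Their summed level was 15.1 and 21.9 rpm in control and 300.0 and 245 rpm in DmAngel KO. The most-read, CG11893, had 3 reads in each control library and 55 and 44 reads in DmAngel KO, a pooled ratio of 27.1 (12.0 to 75.6). CG6830 had 5 and 3 reads in the controls and 47 and 31 in the knockouts. CG10562 had 45 and 17 reads in the knockouts, a 2.38-fold difference between these libraries in rpm. CG11892 had 23 and 35, within 2-fold, and these 2 genes had 2 to 10 reads in control. CG11893, CG11892 and CG10562 lie together on chromosome 3R between 25281548 and 25322757, and CG6830 is elsewhere on 3R. This cluster was picked out after its values were seen.

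Mitochondrial proteins are encoded by 4 of the 48, after respiratory chain genes whose symbols start with ND- or COX and HtrA2 were left out by name. Alas, the enzyme of the first step of haem synthesis, had 12.8 and 19.7 rpm in control and 146 and 118 rpm in DmAngel KO. Afg3l2, a subunit of the protease that clears damaged proteins from the inner membrane, had 16.6 and 2.19 rpm in control and 102 rpm in each DmAngel KO library. The matching knockout values contrast with controls of 22 reads and 1 read.

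Hsp22, a small heat shock protein of the mitochondrial matrix, had 2 reads in each control library and 34 and 56 in DmAngel KO. Its pooled ratio was 37.0 (13.9 to 139). The leading Hsp22 entry held 54 of the 94 reads, and its own 932 bases were 5′ untranslated. The counts do not show where on that entry the reads lay. Of 10 other heat shock and chaperone genes tested, 0 were called by edgeR or DESeq2, with 3 at an unadjusted edgeR p under 0.05, whereas without TMM factors 4 were called higher and with a replicate block 3. The mitochondrial chaperonin Hsp60A had 101 and 103 rpm in control and 325 and 363 rpm in the knockouts (log2 fold change 1.08 ± 0.34, edgeR adjusted p = 0.0595, and 0.00353 without TMM factors), and Hsc70-5, a mitochondrial Hsp70, had a log2 fold change of 0.50 ± 0.34.

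CG31643 is a fly member of the FAST kinase domain family, proteins that act on mitochondrial RNA, together with CG13850. It had 3 and 1 reads in the controls and 63 and 18 in the knockouts, a pooled ratio of 33.3 (12.5 to 125), with a 3.14-fold difference between the knockout libraries. CG13850 had 4 and 1 reads in the controls and 7 and 1 in the knockouts, so a difference in CG13850 was not detectable at this depth.

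Among regulators, ase had the largest ratio of lower knockout to higher control value of all 48, at 32.4. By pooled ratio some genes with fewer control reads were higher, such as Ugt49C1 with 115. The gene, asense, encodes a proneural transcription factor of neural precursors (chromosome X, 460747 to 463176). It had 17.4 and 13.1 rpm in control and 596 and 595 rpm in DmAngel KO, from 23 and 6 against 338 and 308 reads, and its pooled ratio was 36.6 (25.2 to 55.1). The knockout values differed by less than the value of 2 reads. A single transcript is annotated for ase, so its reads could fall on no other entry.

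Of 17 genes of the achaete-scute complex and of neuroblasts, 3 besides ase passed the filter, and 0 of these were called by edgeR or DESeq2, with 0 at an unadjusted edgeR p under 0.05. Without TMM factors 1 was called higher, brat. For mira, a neuroblast adaptor of asymmetric division, the values were 5.28 and 30.6 rpm in control and 15.9 and 44.4 rpm in the knockouts (log2 fold change 0.41 ± 0.74), and brat and numb had log2 fold changes of 0.85 ± 0.50 and 0.04 ± 0.56. The neuroblast factor dpn had 0 reads in all 4 libraries. Nervous system markers were at a summed 209 and 210 rpm in control and 346 and 376 rpm in DmAngel KO, and by edgeR 0 of the 6 tested were called, with 1 at an unadjusted p under 0.05, 0 called by DESeq2 and 2 called higher without TMM factors.

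The other transcription factors were lower and less even. Here, noc, a zinc finger protein of imaginal and tracheal development, had 14.3 and 10.9 rpm in control and 134 and 75.3 rpm in DmAngel KO. NfI, a nuclear factor I family member, had 11.3 and 8.75 rpm in control and 217 and 88.8 rpm in DmAngel KO. It lies 2600 bases from RhoGAP102A on chromosome 4, on the opposite strand. RhoGAP102A was among the best-read, with 83.8 and 52.5 rpm in control and 558 and 562 rpm in DmAngel KO.

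Signalling and membrane proteins formed the remainder of the group. The gene jub, for a LIM protein of the Hippo growth control pathway, had 7 and 1 reads in the controls and 108 and 20 in the knockouts. The sphingosine kinase Sk2 had 4 and 0 reads in the controls and 67 and 42 in the knockouts, a pooled ratio of 44.8 (17.0 to 167). Flo2, a flotillin of membrane microdomains, was near the threshold with 10 and 8 reads in control and 45 in each DmAngel KO library.

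Some of this group act in excitable cells. The gene tipE, for an auxiliary subunit of the voltage-gated sodium channel Para, had 4 and 2 reads in the controls and 113 and 22 in the knockouts. CngA, a cyclic nucleotide-gated channel subunit, had 8 and 3 reads in the controls and 71 and 18 in the knockouts. Rh2, an opsin of the adult ocelli, had 13 and 5 reads in the controls and 42 and 53 in the knockouts. For para itself the values were 12.1 and 54.7 rpm in control and 75.9 and 17.4 rpm in DmAngel KO, with overlapping groups (log2 fold change -0.02 ± 0.73).

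The immunity and extracellular group had 3 genes. Drs encodes drosomycin, an antifungal peptide under Toll pathway control, and had 2.26 and 2.19 rpm in control, or 3 and 1 reads, and 138 and 73.4 rpm in DmAngel KO. Its pooled ratio was 47.6 (18.1 to 178). The C-type lectin lectin-24A had 49.8 and 17.5 rpm in control and 544 and 264 rpm in DmAngel KO, so both groups differed at least 2-fold within themselves. Nepl3, a neprilysin-like peptidase, had 20 and 2 reads in the controls and 43 and 35 in the knockouts.

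Of 9 antimicrobial and immune genes tested besides Drs, 3 were called higher and 2 lower, and without TMM factors 4 higher and 1 lower. Attacin-C (AttC) had 21.1 and 13.1 rpm in control and 206 and 73.4 rpm in the knockouts (log2 fold change 2.23 ± 0.51, edgeR adjusted p = 0.0149). Drosocin (Dro), on 6 and 1 control reads, had a log2 fold change of 2.75 ± 0.67 (adjusted p = 0.0203 by edgeR and 0.0702 by DESeq2), and the Toll pathway transcription factor Dif of 1.93 ± 0.51. The lower genes were PGRP-SC2, a peptidoglycan amidase, with a log2 fold change of -1.40 ± 0.37 (not called without TMM factors), and the stress peptide TotA with -2.64 ± 0.55.

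Among the 16 genes without an assigned role, CG15784 had the most reads, with 41.5 and 45.9 rpm in control and 761 and 457 rpm in DmAngel KO. CG31793 had 30.2 and 15.3 rpm in control and 574 and 535 rpm in DmAngel KO, a pooled ratio of 21.04 (15.6 to 29.0). CG10799 had 15.1 and 13.1 rpm in control and 258 and 253 rpm in DmAngel KO. The knockout values of CG31793 and CG10799 were closer to each other than those of CG15784. The gene l(1)G0020, a homologue of the human RNA acetyltransferase NAT10, had 8 and 3 reads in the controls and 77 and 26 in the knockouts. The remaining genes, CG8854, CG14933, CG30269, CG42486, CG46426, CG30273, CG3348, CG1265, CG14275, CG4269, CG9451 and CG32485, had between 0 and 26 reads in each control library and between 16 and 243 in each DmAngel KO library.

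Per kilobase of the most-read transcript, the order in DmAngel KO was led by Cyt-b5-r, Cyp6a23 and Ugt37A3 with mean values of 1951, 1442 and 1371 rpm per kilobase. CG10799 and lectin-24A followed with 431 and 415, and the other genes lay below. Within the first group, Cyp6a23 (1661 and 1222) was above Ugt37A3 (1596 and 1145) in each knockout library. The gap between these genes was smaller than the difference between the libraries. In control the first places went to Cyt-b5-r and Cyp6a23, with 253 and 188 rpm per kilobase, and Ugt37A3 stood at 44.8.

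The knockout libraries did not agree equally well for all 48. The value of replicate 1 was above that of replicate 2 for 41 of the 48 genes (85.4%), compared with 63.5% of all genes with 60 reads, while in control replicate 1 was the higher for 29 (60.4%), compared with 53.8%. In DmAngel KO 36 of the 48 were within 2-fold of each other. For 7 genes the log2 ratio of knockout replicate 1 to replicate 2 exceeded 1.5, or 14.6%, whereas 50 of all genes with 60 reads (2.13%) did so. They were CG30269 (7.23-fold), CG8854 (5.12-fold), jub (4.84-fold), tipE (4.61-fold), CG30273 (4.57-fold), CngA (3.53-fold) and CG31643 (3.14-fold), and this set was picked after its values were seen. CG30269 and CG30273 are annotated on the same transcript, so they are not separate measurements. CG8854 illustrates the pattern, with 8 and 0 reads in the controls and 243 and 43 in the knockouts. HtrA2, a mitochondrial protease left out of the 48 by name, had the same form, with 11 and 2 reads in the controls and 304 and 62 in the knockouts. In the opposite direction 0 of the 48 exceeded 1.5, and the farthest was CG9451 with 20 and 45 reads in DmAngel KO. The source of the difference between the knockout libraries was not tested.

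**Figure D3:**
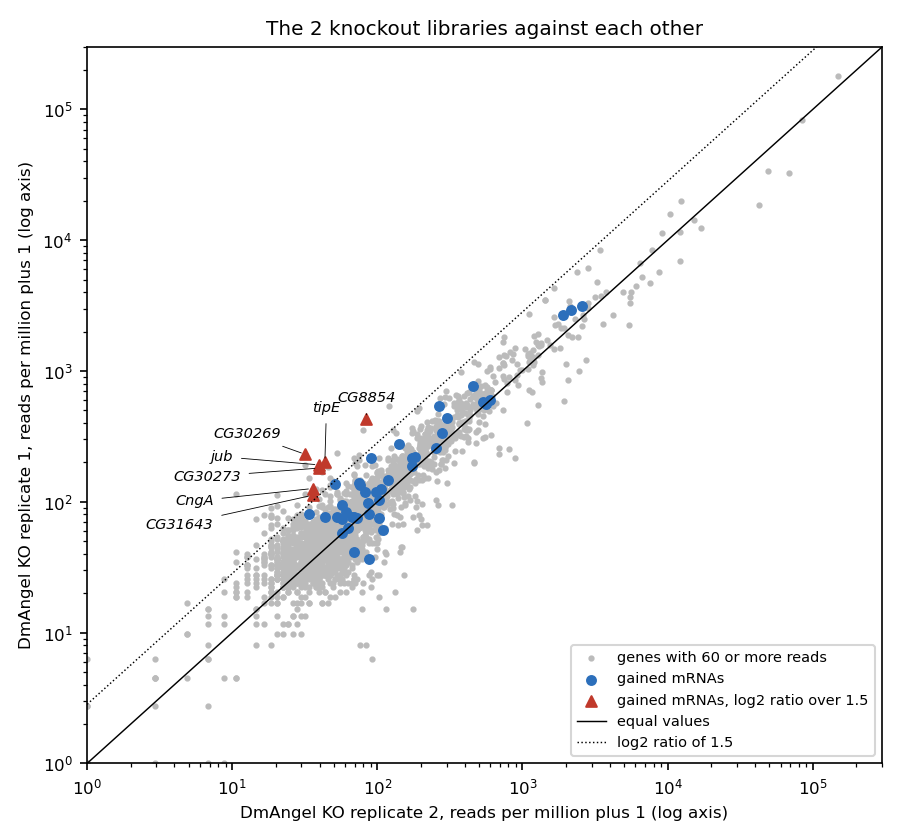
Level in rpm plus 1 in DmAngel KO replicate 1 against replicate 2 (log axes) for genes with 60 or more reads (grey), the gained mRNAs (blue) and the 7 gained mRNAs whose log2 ratio exceeded 1.5 (red triangles, named). Most of the 48 lie near the line of equal values, and the 7 lie above the dotted line with ratios of 3.14 to 7.23. CG30269 and CG30273 are annotated on the same transcript.

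The 48 genes occupy 45 separate loci, because some share exons. CG30269 and CG30273 are annotated on the same 1234-base transcript (2R, 22667155 to 22668848), and their leading entries had 151 and 130 reads. The second CG30269 entry had 2 reads, and the 657 bases it lacks include the whole 384-base coding sequence of CG30273. CG14933, CG42486 and CG46426 likewise share a locus on 2L, which had 52 and 12 reads in the controls and 262 and 197 in the knockouts. There, 4 entries held 121 to 140 reads each and shared 524 bases, which contain all 231 coding bases of CG14933 and 0 coding bases of the other genes. The fifth entry, without those bases, had 3 reads. The counts of these 5 genes are therefore not separate measurements. Sk2 and CG32485 lie 163 bases apart on the same strand of 3L, and 12 of the 48 genes had another within 50 kb. These 12 include the 5 genes that share exons, and the matching share over all genes was not measured, so the count does not show clustering.

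Most genes with several transcripts could not be assigned to an isoform. Of the 48, 21 had a single annotated entry and 27 had more, and in 22 of the 27 the leading entry held under 70% of the reads. How reads that match several entries were shared among them is not stated. The leading entry stood out in RhoGAP102A, where it held 98.4% of 742 reads and its own sequence comprised 541 bases, of which 499 are 3′ untranslated and 42 coding. In CngA the leading entry held 85.0% of 100 reads and had 1284 bases of its own, 600 of them coding. In Flo2 it held 83.3% of 108 reads and its own 745 bases were 5′ untranslated. In RhoGAP102A the share of the leading entry was 98.5% in control and 98.4% in DmAngel KO, so the same entry was read in each genotype.

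**Figure D4:**
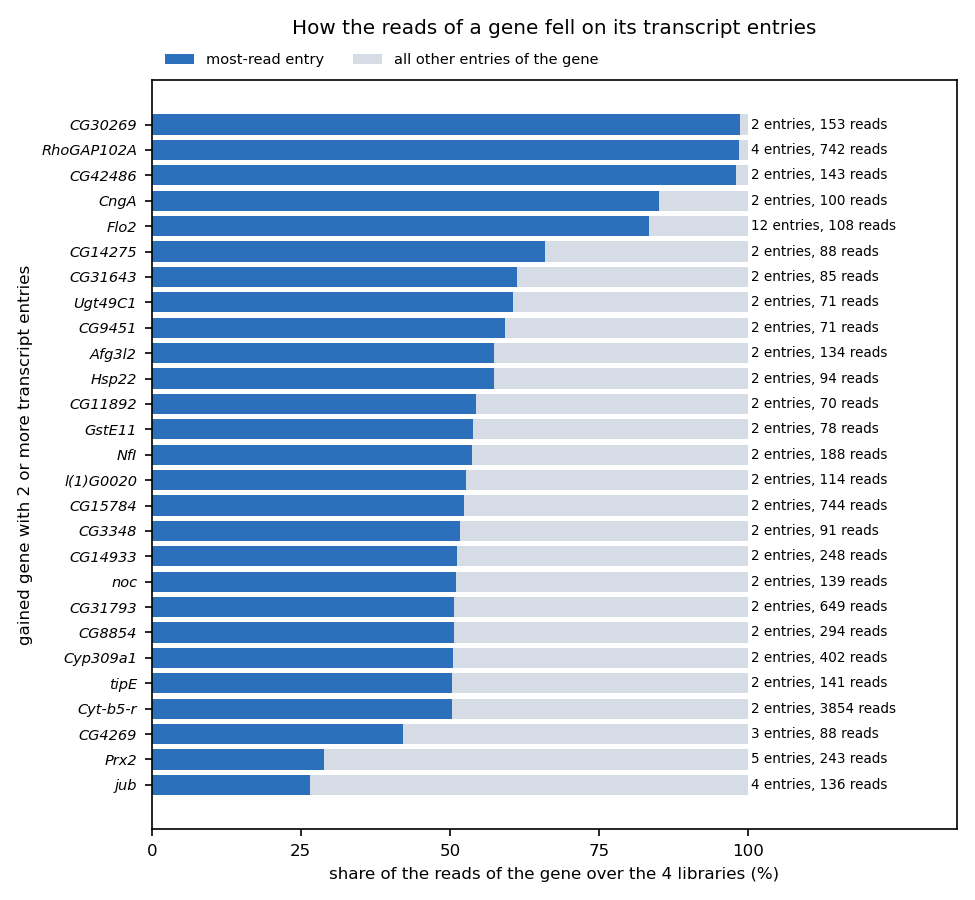
Share of the reads of a gene, summed over the 4 libraries, that fell on its most-read transcript entry (blue) and on all its other entries (light), for the 27 gained genes with 2 or more entries; the number of entries and reads stands beside each bar. CG30269, RhoGAP102A and CG42486 lie above 97%, CngA and Flo2 at 85.0% and 83.3%, and the other 22 below 70%.

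The threshold did not mark a gap. Just inside were Cyp9b1, Nepl3 and Flo2 with ratios of 4.21, 4.26 and 4.35, and just outside were CG14205, CG13068 and bor with 3.98, 3.94 and 3.93. Relative to all reads of the library, mitochondrial entries included, each of the 48 had a knockout mean above its control mean. The median ratio of these means was 3.14-fold, and it was at least 2-fold for 34. For some genes, among them GstE9 (1.12-fold) and Cyp9b1 (1.26-fold), a knockout library lay below a control library. On that scale 2 genes (Ugt37A3 and ase) met the 4-fold rule. With TMM factors, which set the median of all genes near 0, 30 genes met it. With the storage and receptor genes taken out of the total, 36 genes met it, all of them among the 48. Leaving out a single library, which makes the rule easier to meet, raised the count of genes to between 72 and 101.

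Some tissue markers shifted with genotype. Fat body markers had 6 of 7 genes called lower, with a summed 364807 and 206391 rpm in control and 119277 and 107746 rpm in DmAngel KO. Fbp1 had 4105 and 1277 reads in the controls and 4 and 3 in the knockouts. The fat body marker apolpp was not called (log2 fold change 0.15 ± 0.56). It had 52643 and 40908 rpm in control and 82306 and 84408 rpm in DmAngel KO, most of the summed knockout level. Salivary gland markers had 3 of 6 called lower, and Sgs3, a glue protein gene of late larvae, had 74 and 65 reads in control and 0 in each DmAngel KO library. The salivary markers ng1, ng2 and ng3 were not called, with log2 fold changes of 0.24, 0.33 and 0.19. Midgut markers had 4 of 8 called lower, while by edgeR and by DESeq2 0 of 7 muscle and 0 of 7 hemocyte markers were called, with 1 muscle marker and 0 hemocyte markers at an unadjusted p under 0.05. Without TMM factors 3 midgut markers were called lower, 3 muscle markers higher and 0 hemocyte markers in either direction. With a replicate block 1 muscle marker was called higher and 1 hemocyte marker lower. The summed level of the muscle markers was 3036 and 3582 rpm in control and 10549 and 5536 rpm in DmAngel KO. Of the germ line markers, bam and osk were at 0 in all libraries and no marker could be tested. The genes called lower include those that larvae express at the end of the third instar, and their part in the higher rpm of the 48 mRNAs was not tested.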

How the data were processed

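Larval mitochondrial lysates were digested with RNase T1, and RNA of the monosome fraction was sequenced as small RNA libraries. The authors trimmed the reads, removed those on non-coding RNA and aligned the rest with Bowtie2 to fly transcripts of Ensembl release 99 in which the mitochondrial entries had been edited, and they deposited raw counts of reads per transcript entry without normalization. The submitters' notes also name BDGP6 and bedtools. How reads matching several entries were counted is not stated, and reads were placed on the sense strand only.

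Counts of 34713 of 34882 nuclear entries were matched by identifier to the Ensembl annotation of BDGP6.54, which gave symbols and coordinates (the files hold none), and summed per gene. The other entries were counted in the totals only. Levels in rpm use the nuclear total of each library, with 1 added for ratios. Pooled ratios compare reads of both libraries of a group with their nuclear totals and have exact (Clopper-Pearson) 95% intervals, which cover counting error only. The depth on nuclear transcripts was 457054 to 1324943 reads per library, and 3 reads corresponded to 2.26 to 6.56 rpm.

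All genes past the filter were fitted, and differential tests are given for genes outside the 48, with edgeR 4.0.16 (glmQLFit and glmQLFTest, filterByExpr, TMM) in R 4.3.3 with genotype only and Benjamini-Hochberg adjustment at 0.05. On simulated data, 98% of 200 genes changed by 3 on the log2 scale were recovered among 2994 with 6 false calls. The simulated rises and falls were equal in number, with a common dispersion and no shift in composition. It therefore does not measure how reliable smaller changes or the choice of scaling are in these data. DESeq2 1.42.0, other scalings, filters, folds, a replicate block and leaving out each library were alternatives. Values in full were due for the 20 genes with the most reads, the 5 with the largest ratio, members of the gene lists, and the 3 genes on either side of the threshold; other genes are named as picked after their values were seen or as a range. The role groups were also made after the genes were seen. Cyp1, a cyclophilin whose symbol resembles those of cytochrome P450s, was left out of that list. The 48 genes and the lists were chosen with earlier results of these data known. Sequences were not used here.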

Additional observations from a re-analysis of the deposited data

How the results depend on the processing

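The count of 48 genes and their median log2 ratio of 3.59 depended on scaling and on the threshold. TMM factors gave 30 genes and a median of 2.93, DESeq2 size factors 29 genes, and the total of all reads 2 genes and a median of 1.27. The edgeR and DESeq2 estimates had medians of 2.95 and 2.95. A fold of 3 gave 93 genes, a fold of 8 gave 20, and a minimum of 120 reads gave 27. A total without storage and receptor genes, chosen after seeing the data, gave 36 genes and a median of 3.26. Leaving out a library gave 72 to 101 genes (101 without control replicate 1, 92 without knockout replicate 2, 78 without control replicate 2) and medians of 3.20 to 3.77. By construction fewer libraries or a lower fold ask less of a gene, and the cause of the other shifts was not tested.

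The 125 higher and 210 lower calls became 735 and 116 without TMM factors, 30 and 2658 when libraries were sized by all entries, and 70 higher calls with DESeq2. Leaving out a library gave 118 (without knockout replicate 2) to 433 (without control replicate 2) lower calls and 92 to 175 higher ones, where a lone library was assumed to vary like the other group. With a replicate block there were 250 higher and 372 lower calls, which included all 335 calls made without it, and the median estimate of the 48 was 3.03. Requiring each knockout library to exceed only its same-numbered control gave 67 genes. Replicate numbers are not stated to pair libraries, and the differences between replicates correlated at 0.18 across genes between the genotypes. In the lists outside the 48, the block changed the counts most for UDP-glycosyltransferases (5 called higher) and cytochrome P450s (8 called lower).

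At this depth, genes with few control reads have wide intervals, and a gene with fewer than 60 reads over the 4 libraries was not considered. The other alternatives (a minimum of 30 reads with 72 genes, 0.1 added with 51, the most-read entry with 37 of which 36 were among the 48) stayed within 1.5 times.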

Other observations

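Other pathways gave values that belong to no comparison above. Of 15 tested genes of ecdysone response and metamorphosis, 1 was called higher by edgeR, ImpL2, an insulin-binding secreted protein, with 24.9 and 21.9 rpm in the controls and 102 and 98.4 rpm in the knockouts (log2 fold change 1.39 ± 0.40, edgeR adjusted p = 0.0426, -0.06 relative to all reads), and 5 were lower, Fbp1, Fbp2, Sgs3, Sgs5 and Sgs7. Sgs7, a salivary glue gene, had 69 and 54 reads in the controls and 0 in each knockout library. Of 12 genes of glycolysis and lactate metabolism, 0 were called by edgeR or DESeq2, with 1 at an unadjusted p under 0.05 and 4 called higher without TMM factors, and the median log2 fold change was 0.29. Of 8 serpins 0 were called by either tool, with 2 at an unadjusted p under 0.05. Among lipid enzymes the lipase mag (log2 fold change -1.70 ± 0.46) and among transporters the amino acid transporter gb (-1.54 ± 0.44) were called lower, and neither was called without TMM factors.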
